A study of Mus musculus with 8 samples.

Results

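The Toll-like receptors of the cell surface and of endosomes, with the proteins that bring them to their place and pass on their signal, are represented by 10 genes. They are Tlr1, Tlr2 and Tlr4 (surface receptors), Tlr3, Tlr7, Tlr8 and Tlr9 (endosomal receptors), Unc93b1 (a trafficking chaperone), Myd88 (an adaptor) and Irak4 (a kinase). The genes were chosen by name for their function, with earlier results of these data known. Each symbol maps through GENCODE on GRCm38 to 1 of the 51826 Ensembl genes in the count table. All 10 were among the 16484 genes that passed the filter on low counts.

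Toll-like receptors recognize conserved microbial molecules. The surface members respond mainly to lipids and lipoproteins, Tlr1 as a partner of Tlr2 for lipopeptides and Tlr4 for lipopolysaccharide, whereas the endosomal members respond to nucleic acids and depend on Unc93b1 to leave the endoplasmic reticulum. Most of them recruit Myd88, which gathers Irak4 and related kinases to activate NF-κB, and in the spleen they are carried by B cells, dendritic cells, macrophages and neutrophils, where Tlr7 and Tlr9 are studied in lupus as sensors of self nucleic acids.

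The data are RNA sequencing of total splenocytes, after lysis of red blood cells, from 8 female Balb/c mice euthanized at 3 months of age without pristane, 4 per group. The tRA mice received all-trans-retinoic acid, the active metabolite of vitamin A, orally at 1 mg/kg body weight every day from weaning, and the control mice received the vehicle, canola oil, according to the methods of the study. The treatment text of the labels gives the tRA dose for all 8 mice, and the grouping follows the sample titles. The comparison asks which transcripts differ in the spleen after tRA and before any induction of lupus.

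The counts on genes totaled between 30919272 and 37539631 per mouse. Mice of the same group differed beyond counting error, the chi-square over its degrees of freedom lying between 12.9 and 65.4 for each pair. Levels are given as CPM, counts scaled to library sizes adjusted by the TMM method. Levels of different genes are compared only after division by length, the kilobases of merged exons unless another length is named. Fold changes are tRA over control on the log2 scale, with the standard error and a 95% confidence interval from edgeR's quasi-likelihood fit across all genes tested. Beside them stands a two-sided exact permutation test of each gene's log2 CPM, which with 4 mice against 4 cannot give a p below 0.0286.

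At the threshold of FDR under 0.1 (edgeR, adjusted by Benjamini and Hochberg), 0 of the 10 genes were called, as were 0 of all 16484 genes tested (0%). Tlr1 was the 1 gene of the 10 with an unadjusted p under 0.05 and a higher level with tRA, and 0 had a lower level at that threshold, against 485 (2.94%) and 585 (3.55%) of all genes tested. By CPM with the TMM factors, Unc93b1 was the 1 gene whose tRA mice all lay below the control mice, as in 269 of all genes tested (1.63%). On the same scale 0 of the 10 had all tRA mice above, as in 315 of all genes tested (1.91%). Without these factors the groups of Unc93b1 overlap. DESeq2 called 27 genes and limma-voom called 1, and 0 of the 10 were among those called by either tool. The edgeR p-values set the difference between the groups against the spread between mice within groups, for which both groups share an estimate.

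The log2 fold change was positive for 7 of the 10 genes and negative for 3, with a median of 0.044, where all genes tested had 8290 positive and 8194 negative values and a median of 0.0014. Among the 7 receptors it was positive for 6, with a median of 0.12, which leaving out tRA replicate 4 moved to 0.032 and leaving out tRA replicate 1 to 0.18. Without control replicate 3 the median of the 10 was -0.0027. In a bulk sample of splenocytes, fewer cells of a type and less RNA per cell cannot be told apart.

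**Figure D1:**
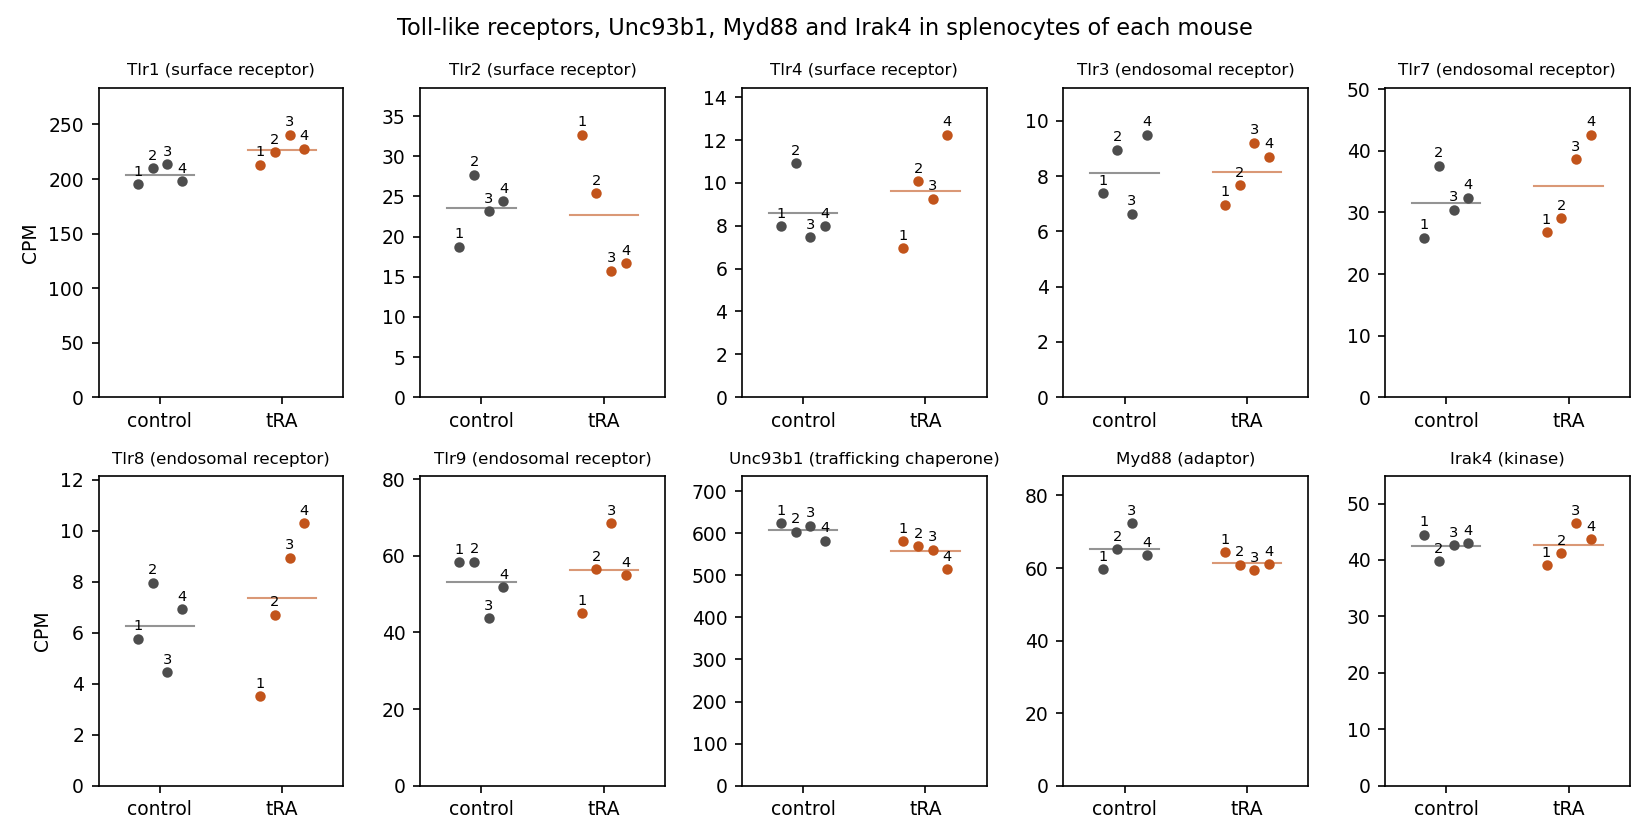
CPM of each of the 10 genes (vertical axis, from 0) in the 4 control and 4 tRA mice, with the replicate number beside each point and a line at the group mean. Unc93b1 is the gene whose groups do not overlap, and tRA replicates 1 and 4 mark opposite ends of the tRA values of Tlr4, Tlr7 and Tlr8.

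Per length of transcript, Unc93b1 had the highest level of the 10 genes, at 200.3 ± 6.08 CPM per kb (SD, n = 4) in control and 184 ± 9.52 (SD, n = 4) in tRA mice. Tlr1 followed at 61.0 ± 2.66 and 67.7 ± 3.36 CPM per kb, and Myd88 at 25.3 ± 2.06 and 23.8 ± 0.824 (SD, n = 4 each). Tlr1 was thus the most abundant of the receptor transcripts in these splenocytes. Tlr9, the receptor for unmethylated CpG DNA, was the most abundant of the endosomal receptors, at 15.3 ± 2.00 and 16.2 ± 2.76 CPM per kb. Irak4, Tlr7 and Tlr2 had 8-mouse means of 8.47, 8.07 and 7.66 CPM per kb. Tlr8, Tlr4 and Tlr3 were lowest, with 8-mouse means of 1.90, 1.64 and 1.56 CPM per kb.

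The first 4 places in this order, Unc93b1, Tlr1, Myd88 and Tlr9, were held in 8 of 8 mice with no overlap between neighbors, and Tlr9 lay above Irak4 in 8 of 8. Irak4 and Tlr7 overlapped, with Irak4 higher in 5 of 8 mice, and so did Tlr7 and Tlr2, with Tlr7 higher in 4 of 8. Tlr2 lay above Tlr8 in 8 of 8 mice. Tlr8, Tlr4 and Tlr3 overlapped and their order differs between mice, Tlr8 being above Tlr4 in 6 of 8 and Tlr4 above Tlr3 in 5 of 8. With the coding length in place of merged exons, 5 of the 10 genes keep their place: Irak4 (30.6 CPM per kb) then lies above Tlr9 (17.7), and Tlr8 (2.20) below Tlr4 (3.36) and Tlr3 (2.99).

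**Figure D2:**
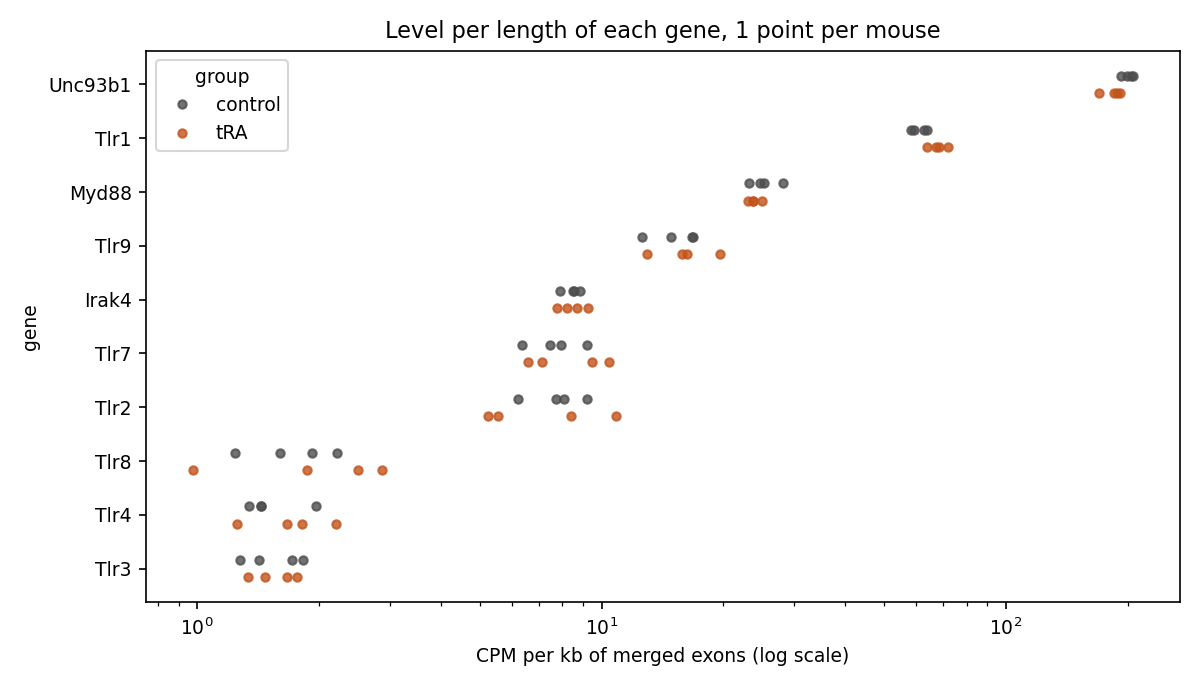
CPM per kb of merged exons (horizontal log axis) of the 10 genes ordered by their mean over 8 mice, with 1 point per mouse. Unc93b1 lies between 170.1 and 206 and Tlr1 between 58.3 and 71.9, while Tlr8, Tlr4 and Tlr3 lie between 0.979 and 2.87.

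Tlr1 (ENSMUSG00000044827, chromosome 5, 64924679 to 64933563), which forms the lipopeptide receptor with Tlr2, was at 195, 209.8, 213 and 198 CPM in control replicates 1 to 4 and at 213, 225, 241 and 228 CPM in tRA replicates 1 to 4. The groups touch at a single point: tRA replicate 1 and control replicate 3 are level, and the other tRA mice lie above every control mouse. The means were 204 ± 8.90 CPM in control and 227 ± 11.3 CPM in tRA mice (SD, n = 4 each). The log2 fold change was 0.15 (standard error 0.0639, interval 0.010 to 0.29), with an FDR of 0.757 in edgeR's quasi-likelihood test and p = 0.0571 in the exact permutation test. The unadjusted p stayed under 0.05 when control replicate 2, control replicate 3 or tRA replicate 1 was left out, and not when any of the other 5 mice was. Tlr1 lies beside its paralog Tlr6, and how many reads could come from either gene was not analysed here.

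Tlr2 (ENSMUSG00000027995, chromosome 3, 83836272 to 83841767), the shared partner of the lipopeptide receptors, was at 18.8, 27.7, 23.2 and 24.4 CPM in control replicates 1 to 4. In tRA replicates 1 to 4 it was at 32.7, 25.4, 15.8 and 16.7 CPM. The tRA mice thus bracket the control mice, with replicate 1 above all of them and replicates 3 and 4 below all of them. The means were 23.5 ± 3.70 and 22.6 ± 7.98 CPM (SD, n = 4 each), and the log2 fold change was -0.055 (standard error 0.217, interval -0.53 to 0.42). The test gave an FDR of 0.973 by edgeR, and the exact permutation test gave p = 0.714. The sign depends on single mice, the log2 fold change being 0.033 when control replicate 2 is left out, and 0.083 or 0.065 when tRA replicate 3 or tRA replicate 4 is.

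Tlr4 (ENSMUSG00000039005, chromosome 4, 66827584 to 66930284), the receptor for bacterial lipopolysaccharide, was at 7.98, 10.9, 7.45 and 7.98 CPM in control and at 6.96, 10.1, 9.27 and 12.3 CPM in tRA replicates 1 to 4. The lowest and the highest of the 8 values are both from tRA mice, replicates 1 and 4, and control replicate 2 stands above the other control mice. The means were 8.59 ± 1.58 and 9.64 ± 2.18 CPM (SD, n = 4 each). Its log2 fold change of 0.17 (standard error 0.181, interval -0.23 to 0.57) had an FDR of 0.869 in edgeR and p = 0.457 in the exact permutation test. It was 0.30 when control replicate 2 is left out, 0.10 for control replicate 3, 0.30 for tRA replicate 1 and 0.032 for tRA replicate 4.

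Tlr3 (ENSMUSG00000031639, chromosome 8, 45395665 to 45411080), the endosomal sensor of double-stranded RNA, was at 7.39, 8.96, 6.65 and 9.50 CPM in control and at 6.96, 7.68, 9.22 and 8.71 CPM in tRA replicates 1 to 4. The tRA values all lie inside the control range. The means were 8.12 ± 1.33 and 8.14 ± 1.01 CPM (SD, n = 4 each), a log2 fold change of 0.0053 (standard error 0.146, interval -0.32 to 0.33) with an FDR of 0.995 in edgeR and p = 0.943 in the exact permutation test. Its sign turns with single mice, to -0.037 when control replicate 1 is left out, -0.087 without control replicate 3, and -0.062 and -0.028 when the mouse left out is tRA replicate 3 or tRA replicate 4. An antisense gene, Gm45542, shares 381 exon bases with Tlr3, and as the TruSeq v2 RNA protocol named in the labels does not keep the strand, reads of the shared bases cannot be assigned to either gene.

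Tlr7 (ENSMUSG00000044583, chromosome X, 167304929 to 167330558), the sensor of single-stranded RNA, was at 25.9, 37.6, 30.5 and 32.4 CPM in control replicates 1 to 4. In tRA replicates 1 to 4 it was at 26.8, 29.0, 38.69 and 42.6 CPM. Replicates 3 and 4 of the tRA group lie above every control mouse, and replicates 1 and 2 lie among the lower control mice. The means were 31.6 ± 4.85 and 34.3 ± 7.59 CPM (SD, n = 4 each), and the log2 fold change of 0.12 (standard error 0.157, interval -0.23 to 0.47) had an FDR of 0.887 in edgeR and p = 0.629 in the exact permutation test. Without tRA replicate 4 it was -0.0024.

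Tlr8 (ENSMUSG00000040522, chromosome X, 167242696 to 167264329) is the neighbor of Tlr7 on the X chromosome and its closest relative in function among these genes, also an RNA sensor. It was at 5.76, 7.97, 4.45 and 6.92 CPM in control and at 3.51, 6.71, 8.95 and 10.3 CPM in tRA replicates 1 to 4, the lowest of these from 115 counts and the highest from 337. As for Tlr7, tRA replicates 3 and 4 lie above every control mouse, while tRA replicate 1 is the lowest of all 8 mice. The means were 6.27 ± 1.51 and 7.37 ± 2.97 CPM (SD, n = 4 each). The log2 fold change of 0.23 (standard error 0.293, interval -0.41 to 0.88) is the largest of the 10 with all mice and also the least precise, with an FDR of 0.884 in edgeR and p = 0.686 in the exact permutation test. Leaving out 1 mouse gave values from 0.030 (tRA replicate 4) to 0.47 (tRA replicate 1), and 0.093 for control replicate 3, where Tlr1 is at 0.17. The unadjusted p was under 0.05 in 1 of these 8 cases, without tRA replicate 1.

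Tlr9 (ENSMUSG00000045322, chromosome 9, 106222598 to 106226883), the DNA sensor, was at 58.3, 58.5, 43.7 and 51.8 CPM in control and at 45.0, 56.6, 68.5 and 54.8 CPM in tRA replicates 1 to 4. The groups overlap, with tRA replicate 3 the highest and control replicate 3 the lowest of the 8 mice. The means were 53.1 ± 6.96 and 56.2 ± 9.62 CPM (SD, n = 4 each), and the log2 fold change was 0.083 (standard error 0.130, interval -0.20 to 0.37), with an FDR of 0.908 in edgeR and p = 0.686 in the exact permutation test. Leaving out control replicate 3 turned it to -0.0057, and leaving out tRA replicate 3 to -0.027.

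Unc93b1 (ENSMUSG00000036908, chromosome 19, 3935186 to 3949340), which escorts the nucleic acid receptors from the endoplasmic reticulum to endosomes, was at 624, 604, 618 and 583 CPM in control replicates 1 to 4. In tRA replicates 1 to 4 it was at 581, 570.2, 561 and 516 CPM. Every tRA mouse lies below every control mouse, though tRA replicate 1 and control replicate 4 differ little, and tRA replicate 4 is the lowest. Without the TMM factors, tRA replicate 3 lies above control replicate 4 (20695 of 35165876 against 18029 of 30919272 counts). The means were 607 ± 18.4 and 557 ± 28.9 CPM (SD, n = 4 each), and the log2 fold change was -0.12 (standard error 0.0678, interval -0.27 to 0.025). It did not pass the threshold, with an FDR of 0.780 in edgeR, and the exact permutation test gave p = 0.0286, the smallest that it can give here. The log2 fold change was negative under every alternative tried, and with 1 mouse left out at a time it lay between -0.15 and -0.089.

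Myd88 (ENSMUSG00000032508, chromosome 9, 119335934 to 119341411), the adaptor shared by most Toll-like receptors and the interleukin-1 receptor family, was at 59.6, 65.1, 72.3 and 63.5 CPM in control and at 64.4, 60.9, 59.4 and 61.0 CPM in tRA replicates 1 to 4. The groups overlap, and control replicate 3 is the highest of the 8 mice. The means were 65.2 ± 5.31 and 61.4 ± 2.12 CPM (SD, n = 4 each), a log2 fold change of -0.086 (standard error 0.0716, interval -0.24 to 0.072) with an FDR of 0.833 in edgeR and p = 0.286 in the exact permutation test. Leaving out control replicate 3 gave -0.038. Myd88 shares 290 exon bases with Acaa1a on the opposite strand.

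Irak4 (ENSMUSG00000059883, chromosome 15, 94543643 to 94581815), the kinase that Myd88 recruits first, was at 44.5, 39.7, 42.6 and 42.9 CPM in control and at 39.0, 41.2, 46.5 and 43.7 CPM in tRA replicates 1 to 4. Both ends of the range are tRA mice, replicate 1 at the bottom and replicate 3 at the top. The means were 42.4 ± 1.98 and 42.6 ± 3.23 CPM (SD, n = 4 each), a log2 fold change of 0.0053 (standard error 0.0746, interval -0.16 to 0.17) with an FDR of 0.992 in edgeR and p = 0.971 in the exact permutation test. Leaving out control replicate 2 gave -0.025, and leaving out tRA replicate 3 or tRA replicate 4 gave -0.041 or -0.0070. Irak4 shares 395 exon bases with Twf1 on the opposite strand.

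The genes differ in how much they vary among the 8 mice. The SD of log2 CPM over the 8 mice was 0.511 for Tlr8, 0.366 for Tlr2, 0.285 for Tlr4 and 0.262 for Tlr7, and 0.211 for Tlr9 and 0.196 for Tlr3. It was 0.102 for Tlr1, 0.0936 for Myd88, 0.0884 for Unc93b1 and 0.0841 for Irak4. The chaperone, the adaptor, the kinase and Tlr1 thus stayed close to their means, while the other receptors moved.

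The 4 receptors with the largest SD differed between mice of the tRA group. Relative to the mean over all mice, log2 CPM of Tlr8 was -0.87 in tRA replicate 1, 0.051 in replicate 2, 0.46 in replicate 3 and 0.66 in replicate 4. Tlr7 was likewise lowest in tRA replicate 1 and highest in replicate 4, at -0.28, -0.16, 0.25 and 0.39, and Tlr4 was at -0.36, 0.17, 0.050 and 0.45. Tlr2 was highest in replicate 1, at 0.54, with 0.18 in replicate 2, -0.51 in replicate 3 and -0.42 in replicate 4. Not all genes share these places: within the tRA group Tlr1, Tlr3, Tlr9 and Irak4 were highest in replicate 3. In the control group Tlr2, Tlr4, Tlr7 and Tlr8 were all highest in replicate 2, at 0.30, 0.28, 0.21 and 0.30.

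**Figure D3:**
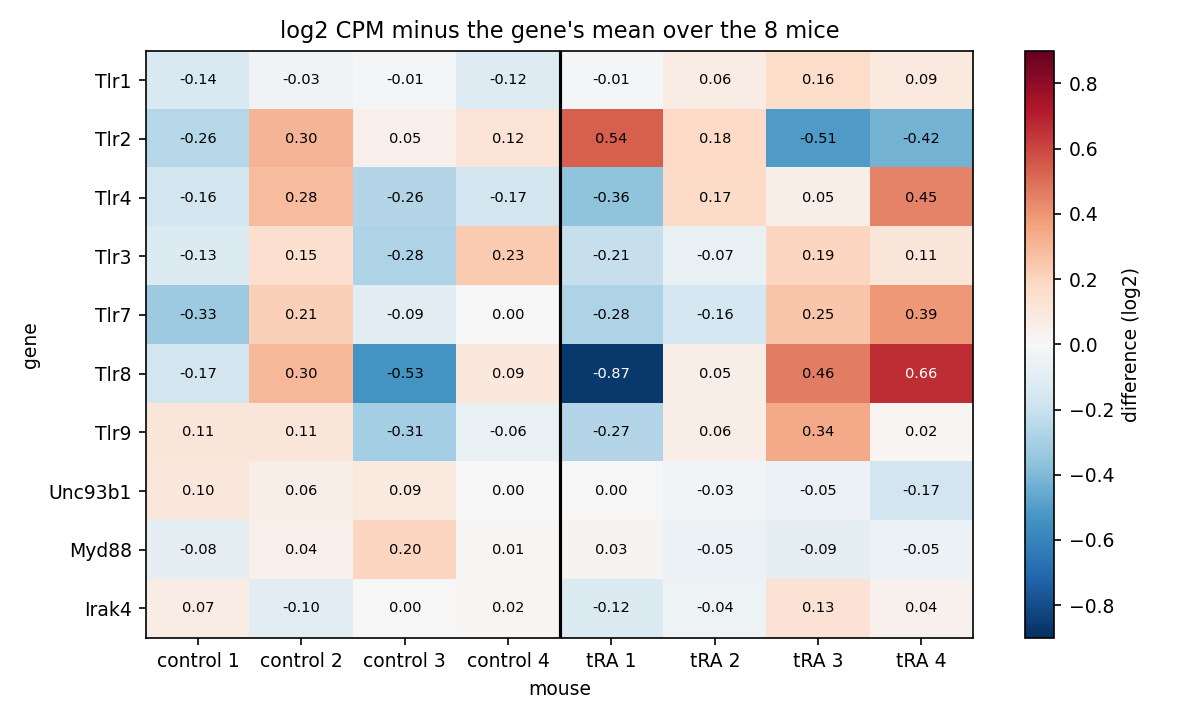
Log2 CPM of each of the 10 genes minus its mean over the 8 mice (color and printed value), with the 4 control mice left and the 4 tRA mice right of the line. In tRA replicate 1, Tlr8 is at -0.87 and Tlr2 at 0.54, and in tRA replicate 4 they are at 0.66 and -0.42.

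By the summed level per length of the 7 receptors, the surface receptors Tlr1, Tlr2 and Tlr4 made up 71.6%, 71.1%, 76.4% and 72.1% in control replicates 1 to 4 and 77.7%, 74.3%, 70.2% and 71.2% in tRA replicates 1 to 4. The groups overlap, with means of 72.8 ± 2.40% and 73.3 ± 3.37% (SD, n = 4 each). Tlr1 alone made up between 60.4% and 66.9% of the receptor sum and sets most of this share. Tlr9 made up 13.2% to 18.2%, Tlr7 6.72% to 9.79% and Tlr2 4.66% to 11.1%. The surface share was highest in tRA replicate 1. In this mouse the share of Tlr2 (11.1%) was the highest of all mice, and those of Tlr7 (6.72%) and Tlr8 (1.00%) were the lowest. Tlr9 made up 13.3% there, beside an 8-mouse mean of 15.6%.

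For the 3 genes that varied most, the genes tested with the most similar profile over the 8 mice were found by the root-mean-square difference of mean-centered log2 CPM. They were Tcp11l1 (0.125), Gm26890 (0.125) and Gm45527 (0.143) for Tlr8. For Tlr2 they were C1qtnf9 (0.103), Klf10 (0.105) and Aldh1b1 (0.138), of which Klf10 is known as an early response gene. For Tlr4 they were Gm10814 (0.0690), 4921525O09Rik (0.0980) and Naip2 (0.105), of which Naip2 encodes a cytosolic sensor of bacterial secretion systems.

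Marker genes of cell types and of cell handling show which other transcripts differ between the same mice. The cell handling list holds 8 immediate early and heat shock genes that respond when tissue is dissociated, with Fos as the most abundant per kb and 0 of the 8 at 0 counts. Its summed level was 15999.9, 15068, 15850.3 and 13079 CPM in control replicates 1 to 4 and 13678, 11599.8, 5475 and 7737 CPM in tRA replicates 1 to 4. All 8 genes had a negative log2 fold change (median -0.64), 5 of them with an unadjusted p under 0.05, as for 3.55% of all genes tested. At an FDR under 0.1, edgeR and limma-voom called 0 of them and DESeq2 called Jun and Egr1, both lower with tRA. The sum was lowest in tRA replicates 3 and 4, the mice in which Tlr2 was lowest and Tlr7 and Tlr8 were highest, and its part in those differences was not tested. The heat shock genes Hspa1a and Hspa1b followed the sum only in part: within the tRA group they were lowest in replicate 3, at 77.3 and 215 CPM, as the sum was, but highest in replicate 4, at 307 and 893 CPM, with 127 and 276 CPM in replicate 1 and 296 and 677 CPM in replicate 2.

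Myeloid markers differed between mice as well. The 4 monocyte markers, with Csf1r the most abundant per kb, summed to 213, 353, 277 and 246 CPM in control and to 222, 286, 335 and 307 CPM in tRA replicates 1 to 4. The 4 red pulp macrophage markers, with Hmox1 the most abundant per kb, summed to 370.1, 439, 340.0 and 283 CPM and to 257, 358, 412 and 313 CPM. Both sums were lowest within the tRA group in replicate 1 and highest in replicate 3, and highest within the control group in replicate 2. The monocyte marker Ly6c2 did not follow, at 21.5, 17.3, 19.8 and 22.5 CPM in tRA replicates 1 to 4. It was highest within the control group in replicate 4, at 27.5 CPM. Its log2 fold change was -0.23, and the other 3 monocyte markers had positive values. Of the 5 mature neutrophil markers, Csf3r and Cxcr2 had positive log2 fold changes (0.25 and 0.39) and 3 had negative values, among them S100a8 and S100a9 (-0.63 and -0.58) at an unadjusted p under 0.05. S100a9 had the highest level per kb of this list, which summed to 513, 844, 672 and 648 CPM in control and to 604, 547, 433 and 771 CPM in tRA replicates 1 to 4. The 5 neutrophil precursor markers, with Ngp the most abundant per kb, summed to 487, 608, 647 and 549.7 CPM and to 215, 264, 292 and 422 CPM, the only list of these 4 whose groups do not overlap, with 5 of 5 genes negative at an unadjusted p under 0.05 (3.55% of all genes tested). At an FDR under 0.1, edgeR called 0 of these 5, DESeq2 called Camp, Ngp and Ltf, and limma-voom called Camp, all lower with tRA. No gene of these lists was at 0 counts in all mice, and their part in the receptor values was not tested.

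The other lists check the labelled tissue. B cell markers, with Cd79a the most abundant per kb, had a mean sum of 3946 CPM in control and 3939 CPM in tRA mice, and T cell markers, with Cd2 the most abundant per kb, 667 and 699 CPM. Splenocytes are rich in both cell types. The mean sums were 87.4 and 97.5 CPM for NK cell, 739.7 and 573 CPM for plasma cell, and 139 and 141 CPM for plasmacytoid dendritic cell markers. They were 512 and 463 CPM for cDC1 markers, of which Wdfy4 alone had 475 and 430 CPM. For cDC2 markers they were 164 and 167 CPM, of which Sirpa alone had 150 CPM in either group. Since single genes make up most of these sums, they do not compare the numbers of cells. Erythroid markers, which remain after red cell lysis, averaged 1183 and 1613 CPM and ranged from 450.1 CPM in control replicate 4 to 3254 CPM in tRA replicate 3, and platelet markers averaged 7.32 and 6.57 CPM. At an unadjusted p under 0.05 in edgeR stood 1 plasma cell gene lower and 1 plasmacytoid dendritic cell and 1 cDC2 gene higher, beside 3.55% lower and 2.94% higher of all genes tested. In edgeR, DESeq2 and limma-voom alike, 0 genes of these 9 lists had an FDR under 0.1.

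Around the 10 genes, 59 further genes of the pathway were listed in 8 roles, and 57 passed the filter on low counts. Of the 57, 23 had a positive and 34 a negative log2 fold change, with a median of -0.017 against 0.0014 over all genes tested, and with library size alone as the scaling it was 0.011 against 0.031, below that of all genes in both. Leaving out 1 mouse gave medians from -0.046 (control replicate 4) to -0.012 (tRA replicate 4). In edgeR 0 of the 57 had an FDR under 0.1, and at an unadjusted p under 0.05 there was 1 higher and 4 lower, beside 2.94% and 3.55% of all genes tested. This split depends on the scaling and the tool, as seen among the pathway genes named below. With library size alone, Lgmn and Ly86 left this set and Ikbkb, with a positive log2 fold change, entered it. In DESeq2, Ly86 left and Ikbkb entered. With RLE factors and in limma-voom the set of named genes was unchanged. All 4 tRA mice lay above all control mice for Ikbkb and Irak3 (1.91% of all genes tested) and below for Lbp (1.63%). Without the TMM factors the groups of Irak3 and Lbp overlap. With 1 mouse left out at a time, the unadjusted p stayed under 0.05 in 8 of 8 cases for Irak3 and Il12b, in 5 of 8 for Lbp, 4 of 8 for Lgmn and 3 of 8 for Ly86. It came under 0.05 in 1 of 8 cases for Tlr6 and Nfkbia, both without tRA replicate 1, and for Ctss, without control replicate 4. The 2 genes that did not pass the filter were the cytokines Il6 and Ifnb1, the second with 0 counts in all 8 mice, which allows at most 0.0812 to 0.0969 CPM per mouse at 3 counts each.

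Among the 5 other receptors, Tlr6 had the highest level, 7.41 CPM per kb. Tlr6, which like Tlr1 pairs with Tlr2, was at 22.1, 26.9, 26.6 and 25.4 CPM in control and at 23.3, 30.8, 34.0 and 31.8 CPM in tRA replicates 1 to 4. As for Tlr1, tRA replicate 1 lies among the control mice and the other tRA mice lie above all of them. Its log2 fold change was 0.25 (standard error 0.118) with an FDR of 0.776 in edgeR and p = 0.143 in the exact permutation test. Of the 5 genes, Tlr5, Tlr6, Tlr11 and Tlr13 had positive values and Tlr12 a negative value, with a median of 0.18 and all values between -0.18 and 0.27.

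Among the 6 co-receptors, which help ligands reach the receptors, 1 had a positive and 5 a negative log2 fold change, with a median of -0.17. The positive value, 0.31, was that of Cd180, named here after its values were seen, at 123, 173, 122 and 126 CPM in control and at 126, 178, 203 and 166 CPM in tRA replicates 1 to 4, and the groups overlap. Ly86, which with Cd180 forms a regulator of lipopolysaccharide responses on B cells, had the highest level, 38.9 CPM per kb. It was at 145, 137, 178 and 147 CPM in control and at 142, 138, 129 and 115 CPM in tRA replicates 1 to 4, and its log2 fold change was -0.21 (standard error 0.0944, FDR 0.757 in edgeR, p = 0.0857 in the exact permutation test). The groups overlap, tRA replicates 3 and 4 are the lowest, and leaving out control replicate 3 gave -0.13. By the longest transcript, Cd180 (57.4 CPM per kb) lay above Ly86 (52.6). Lbp, the lipopolysaccharide binding protein of plasma, was at 1.60, 1.62, 2.05 and 2.33 CPM in control and at 0.764, 1.04, 1.52 and 1.44 CPM in tRA replicates 1 to 4. Every tRA mouse lies below every control mouse, at levels near 1 to 2 CPM. Without the TMM factors, tRA replicate 3 lies just above control replicate 1. For Lbp the log2 fold change was -0.67 (standard error 0.255, FDR 0.757 in edgeR, p = 0.0286 in the exact permutation test).

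Among the 8 genes of trafficking and processing, 1 had a positive and 7 a negative log2 fold change, with a median of -0.071. Ctss, a cysteine protease of endosomes that can cleave endosomal receptors, had the highest level, 344 CPM per kb, and was at 478, 492, 543 and 461 CPM in control and at 448, 468, 446 and 405 CPM in tRA replicates 1 to 4. The groups overlap only through tRA replicate 2, which lies above control replicate 4, and the log2 fold change was -0.16 (standard error 0.0767, FDR 0.776 in edgeR, p = 0.0571 in the exact permutation test). Lgmn, the asparagine endopeptidase of endosomes, was at 96.9, 109.5, 106 and 93.3 CPM in control and at 79.7, 94.2, 97.5 and 81.9 CPM in tRA replicates 1 to 4. Its tRA replicates 1 and 4 lie below all control mice, and the log2 fold change was -0.20 (standard error 0.0849, FDR 0.757 in edgeR, p = 0.143 in the exact permutation test).

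Among the 5 adaptors, 3 values were positive and 2 negative, with a median of 0.097. Pik3ap1, a link from Toll-like receptors to phosphoinositide 3-kinase in B cells, had the highest level, 21.1 CPM per kb. It was at 132, 132, 87.8 and 123 CPM in control and at 103, 119.8, 121 and 122 CPM in tRA replicates 1 to 4, and its log2 fold change was -0.025 (standard error 0.122, FDR 0.981 in edgeR, p = 0.914 in the exact permutation test). The groups overlap, with control replicate 3 the lowest mouse, and the sign turns when control replicate 1 (0.029), control replicate 2 (0.031) or tRA replicate 1 (0.031) is left out.

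Among the 15 kinases and ubiquitin enzymes, 10 values were positive and 5 negative, all between -0.083 and 0.15 with a median of 0.073. Tab2, which tethers the kinase Map3k7 to ubiquitin chains, had the highest level, 44.0 CPM per kb, and was at 277, 262, 256 and 254 CPM in control and at 277, 270.3, 275 and 287 CPM in tRA replicates 1 to 4. The groups overlap through control replicate 1, and the log2 fold change was 0.080 (standard error 0.0604, FDR 0.814 in edgeR, p = 0.114 in the exact permutation test). Ikbkb, the kinase that marks the inhibitor of NF-κB for degradation, was at 402, 397, 414 and 414 CPM in control and at 456, 417, 446 and 459 CPM in tRA replicates 1 to 4. Every tRA mouse lies above every control mouse, tRA replicate 2 by little, and the log2 fold change was 0.13 (standard error 0.0631, FDR 0.778 in edgeR, p = 0.0286 in the exact permutation test). By the longest transcript or the coding length, Ikbkb (87.9 or 180.6 CPM per kb) lay above Tab2 (61.6 or 129.7).

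All 6 transcription factors had negative values, from -0.26 to -0.013 with a median of -0.076, and 0 of them had an unadjusted p under 0.05. Irf5, which Myd88 activates, had the highest level, 69.0 CPM per kb, and was at 213, 194, 227 and 191 CPM in control and at 202, 181, 198 and 199 CPM in tRA replicates 1 to 4. The groups overlap, and the log2 fold change was -0.084 (standard error 0.0737, FDR 0.843 in edgeR, p = 0.314 in the exact permutation test). Leaving out control replicate 3 gave -0.041, and leaving out tRA replicate 2 gave -0.052. By the coding length, Rel (137.7 CPM per kb) lay above Irf5 (124.3).

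Among the 7 inhibitors, 3 values were positive and 4 negative, with a median of -0.022. Irak3, a kinase-like protein that restrains the Irak complex, had the lowest unadjusted p of all 57 pathway genes. It was at 40.9, 43.6, 39.4 and 42.8 CPM in control and at 44.6, 47.8, 53.2 and 50.9 CPM in tRA replicates 1 to 4. Every tRA mouse lies above every control mouse, and the means were 41.7 ± 1.91 and 49.1 ± 3.74 CPM (SD, n = 4 each). Without the TMM factors, tRA replicate 1 lies just below control replicate 2. The log2 fold change of 0.24 (standard error 0.0743, interval 0.073 to 0.40) did not pass the threshold over all genes tested, with an FDR of 0.757 in edgeR and p = 0.0286 in the exact permutation test. Nfkbia, the inhibitor of NF-κB, had the highest level, 213 CPM per kb, and was at 426, 399, 345 and 328 CPM in control and at 480.4, 339.7, 188 and 237 CPM in tRA replicates 1 to 4. Like Tlr2, it is highest in tRA replicate 1 and lowest in tRA replicates 3 and 4, and its log2 fold change was -0.27 (standard error 0.238, FDR 0.846 in edgeR, p = 0.343 in the exact permutation test). Leaving out tRA replicate 1 gave -0.55, and leaving out tRA replicate 3 or 4 gave -0.089 or -0.16. Within the tRA group the inhibitors Tnfaip3 and Atf3, named here after their values were seen, had the same order as Nfkbia. In tRA replicates 1 to 4, Tnfaip3 was at 960, 605.5, 155 and 211 CPM and Atf3 at 141, 101, 19.5 and 34.5 CPM. The cell handling sum had this order too (13678, 11599.8, 5475 and 7737 CPM), and its part in these values was not tested.

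Of the 7 target cytokines, 5 were tested, 1 with a positive and 4 with a negative value and a median of -0.17. Il1b had the highest level, 69.3 CPM per kb, and was at 94.1, 151, 118 and 144 CPM in control and at 216, 162, 62.8 and 110.2 CPM in tRA replicates 1 to 4. Within the tRA group it is highest in replicate 1 and lowest in replicate 3, as are Tlr2, Nfkbia and the cell handling sum. The log2 fold change of Il1b, 0.12 (standard error 0.304, FDR 0.952 in edgeR, p = 0.971 in the exact permutation test), was -0.18 without tRA replicate 1. Il12b, a subunit of interleukin-12, was at 1.00, 1.28, 1.68 and 1.65 CPM in control and at 1.19, 0.567, 0.651 and 0.642 CPM in tRA replicates 1 to 4. The groups overlap only through tRA replicate 1, and the log2 fold change was -0.87 (standard error 0.297, FDR 0.757 in edgeR, p = 0.0571 in the exact permutation test).

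**Figure D4:**
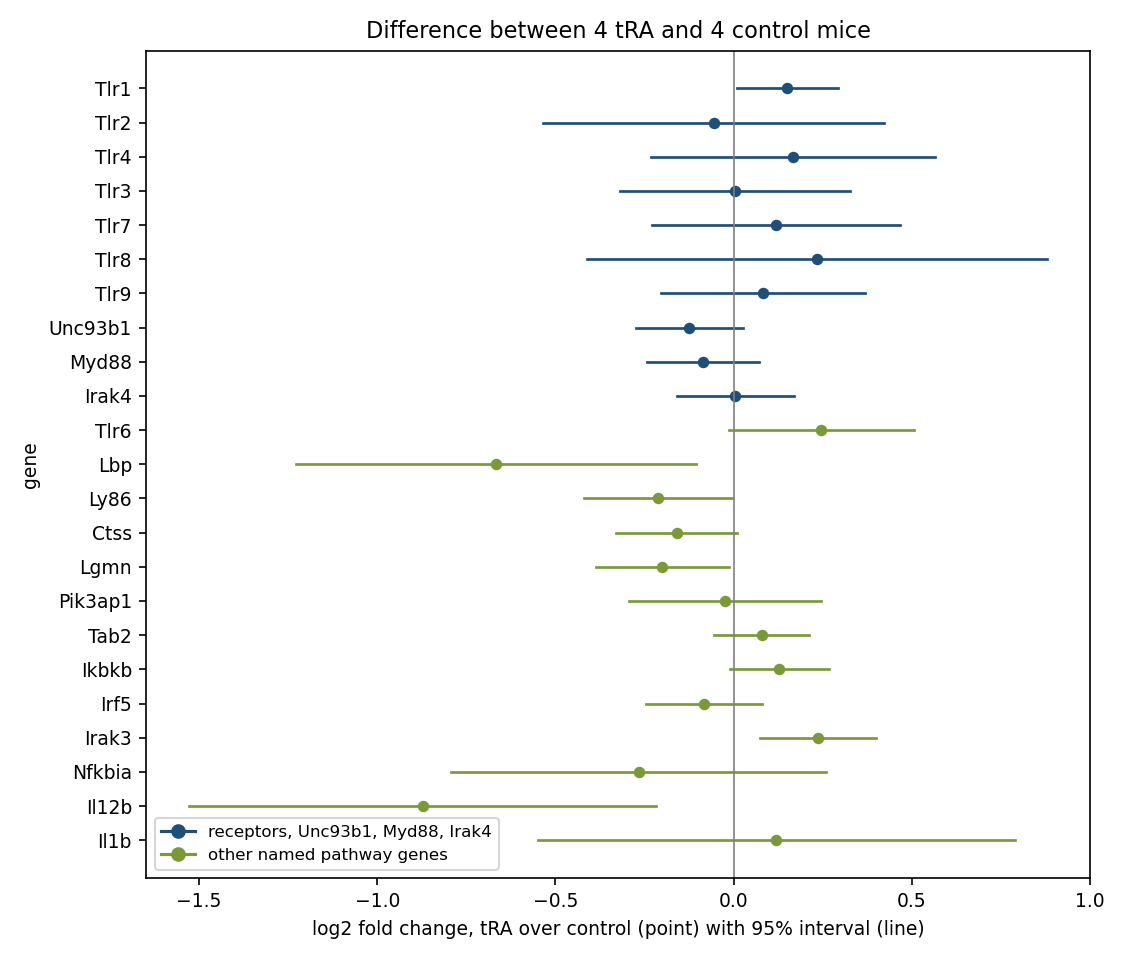
Log2 fold change of tRA over control (points, horizontal axis) with its 95% interval (lines) for the 10 genes (blue) and the 13 named pathway genes (green). The interval of Tlr1 runs from 0.010 to 0.29 and that of Unc93b1 from -0.27 to 0.025, and none of these genes has an FDR under 0.1.

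Retinoic acid receptors, as dimers with retinoid X receptors, bind direct repeats of the hexamer AGGTCA. Promoters from RefSeq on GRCm38.p6 were searched on both strands for AGGTCA repeats with 5, 2 or 1 bases between them. Of the 10 genes, 7 had a promoter entry, with 8 promoters in all, and 0 of them held any of these repeats, as did 0 of the 50 pathway genes with an entry. Over all 32851 promoters, 3 (0.00913%) held the repeat spaced by 5, 3 (0.00913%) that spaced by 2 and 13 (0.0396%) that spaced by 1, so that a strict match is rare in any promoter window. Tlr4, Tlr7 and Unc93b1 had no entry and were not searched.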

How the data were processed

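RNA from total splenocytes of 8 mice was sequenced from TruSeq v2 libraries. The authors deposited counts per Ensembl gene for each mouse. The processing notes of the labels name STAR 2.5.2b, featureCounts 1.5.1 and DESeq2 1.26.0 on GRCm38, while the methods of the study name Tophat2 and HTSeq. Which of these made the counts is not settled here. The TruSeq v2 RNA protocol does not keep the strand.

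Groups follow the sample titles, 4 mice each. CPM were computed from the counts with edgeR 4.0.16 (R 4.3.3) and TMM factors, and log2 CPM with a prior count of 2. Genes passing filterByExpr with a minimum count of 10 were tested by the quasi-likelihood test of tRA against control, with Benjamini-Hochberg FDR under 0.1 as the threshold. The common biological coefficient of variation was 0.152. The code was tested on simulated data with known fold changes. Exact permutation tests used log2 CPM. Lengths and positions came from GENCODE M21, in which 51633 of the 51826 ids have an entry and 193 have none. Pathway genes are named where an unadjusted p was under 0.05, where groups did not overlap, or where the level per kb was the highest of their role.

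Alternatives were DESeq2 1.42.0, limma-voom (limma 3.58.1), RLE factors, library size alone, no filter, at least 10 counts in every mouse, protein-coding genes only, a block for replicate number, other gene lengths, more receptors in the shares and leaving out each mouse. Leaving out tRA replicates 3 and 4 was chosen after seeing the data. The 10 genes, the pathway genes in 8 roles and the 14 marker lists were chosen with earlier results of these data known. Figures were drawn with matplotlib 3.10.9 in Python 3.11.15.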

Additional observations from a re-analysis of the deposited data

Results flagged for a closer look

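In 3 of 48 groups of 4 mice, 1 mouse lay far from the others by Dixon's ratio of the gap to the whole range of the group, where chance alone gives about 1 in 20. Tlr4 in control replicate 2 was at 10.9 CPM with the nearest control mouse at 7.98 CPM (ratio 0.847). Il12b in tRA replicate 1 was at 1.19 CPM with the nearest tRA mouse at 0.651 CPM (ratio 0.866). Pik3ap1 in tRA replicate 1 was at 103 CPM with the nearest tRA mouse at 119.8 CPM (ratio 0.868).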

How the results depend on the processing

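The count of genes at an FDR under 0.1 was 0 in edgeR, 27 in DESeq2, 6 with no filter, 1 in limma-voom, 0 to 3 with 1 mouse left out (3 without tRA replicate 4) and 3 without tRA replicates 3 and 4. None of the 10 genes or the pathway genes was called in any of these settings. With a block for replicate number the count was 0. The correlations of control and tRA mice of equal number were 0.157, -0.023, -0.014 and 0.259. Unequal numbers were not correlated for comparison, so these values cannot decide whether the numbers pair the mice. The block turned Il1b to -0.0031. Library size alone moved the median of all genes from 0.0014 to 0.031, and with this common shift the median of the pathway genes was 0.011 and Pik3ap1 0.0034, both still below all genes. Leaving out 1 mouse at a time gave -0.0027 to 0.12 for the median of the 10 genes, 0.032 to 0.18 for that of the receptors and -0.046 to -0.012 for that of the pathway, and log2 fold changes of -0.29 to 0.083 for Tlr2, 0.032 to 0.30 for Tlr4, 0.030 to 0.47 for Tlr8, -0.087 to 0.088 for Tlr3, -0.0024 to 0.22 for Tlr7, -0.027 to 0.18 for Tlr9, -0.041 to 0.045 for Irak4, -0.13 to -0.038 for Myd88, -0.12 to -0.041 for Irf5, -0.26 to -0.13 for Ly86, -0.15 to 0.031 for Pik3ap1, -0.18 to 0.36 for Il1b and -0.55 to -0.089 for Nfkbia. Without tRA replicates 3 and 4, left out after seeing the data for their low sums of cell handling genes, medians were -0.071 (the 10 genes), -0.065 (receptors) and 0.019 (pathway), and values were 0.30 for Tlr2, -0.012 for Tlr4, -0.15 for Tlr3, -0.18 for Tlr7, -0.30 for Tlr8, -0.065 for Tlr9, -0.083 for Irak4 and 0.13 for Nfkbia, with the sign kept but the value moved for Il1b (0.58), Tlr6 (0.096), Lbp (-1.07) and Unc93b1 (-0.078), among others. Tlr4, Tlr7 and Tlr8 had their highest tRA value in replicate 4, and Tlr3, Tlr9 and Irak4 in replicate 3. Tlr2 and Nfkbia had their lowest values in these mice. What caused these turns of sign was not tested. In the other settings that kept all mice, 0 of the 10 genes changed sign. Coding length kept 5 of 10 places in the order of levels, and adding Tlr5, Tlr6, Tlr11, Tlr12 and Tlr13 gave a surface share of 69.8%. The cause of the other shifts was not tested.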
